A study of Mus musculus with 18 samples.

Results

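The flagellum and axoneme genes are 84 of the 34932 genes in the table of mouse liver, brain and testis. They were chosen by name and by a minimum of counts. The set takes the dynein chain genes, the cilia and flagella associated protein (Cfap) genes, the radial spoke (Rsph), tektin, outer dense fibre (Odf), nexin-dynein regulatory complex (Drc) and CatSper genes, together with Spag6, Spag6l, Spag16, Spag17, Akap3 and Akap4. A member also needed at least 10 counts in 3 or more of the 18 libraries, and all 84 genes whose names matched had them. Odf3l2 came closest to the limit, with 10 counts in 4 libraries. The largest families were Cfap with 30 members, dynein heavy chains (Dnah) with 15, and Odf and Rsph with 8 each. By tissue, 83 members reached 10 counts in 3 libraries in testis, 73 in brain and 24 in liver.

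The axoneme is the microtubule core shared by motile cilia and the sperm tail. Outer and inner dynein arms slide its doublet microtubules past each other, radial spokes and the central pair control when they do so, and the nexin-dynein complex links neighbouring doublets. The sperm tail adds parts that cilia lack: outer dense fibres, a fibrous sheath built on Akap4 and Akap3, and the CatSper calcium channel. In testis these genes are read mainly in meiotic and haploid germ cells, and in brain motile cilia stand on ependymal cells.

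The study set mice under chronic restraint stress, a procedure of repeated confinement used as a model of lasting stress, beside control mice. Each of stress testis, control testis, stress brain, control brain, stress liver and control liver had 3 libraries of total RNA, described as biological replicates, with totals between 27.85 and 36.5 megacounts. The groups differ in restraint alone as far as the labels tell, and no transgene or other agent is named. The sources used here do not state strain, age or the length of the restraint. The brain samples are hippocampus in the wording of the extraction protocol. Stress brain replicate 3 carries a sample code with the control letter, while its title, treatment and column name stress, so it stayed with stress and brain values are also given without it. The other sample codes recur across the 3 tissues, which ties same-numbered libraries within a treatment to the same animal. The codes do not link stress animals to control animals.

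Genes of motile cilia are known targets of RFX transcription factors, which bind a palindrome called the X-box. One arm of it, GGCAAC, or GTTGCC on the opposite strand, was looked for in RefSeq promoters of build GRCm38.p6, from 250 bases before to 50 bases after the start of the gene. It was found in 25 of the 70 members with a promoter in the table (35.71%) and in 3821 of all 27025 genes (14.14%). The full palindrome, searched as GTTNCC and GGNAAC parted by 2 bases of any kind and able to hold that arm, was found in 1 member, Cfap298 (1.43%), and in 143 of all genes (0.53%). The promoters of Spag6, of its near relative Spag6l and of Tekt4 are shown because their brain values are described below. None of these genes was called by edgeR or DESeq2 between stress and control brain. Rsph10b, with the smallest p in brain, was not among the members with a promoter. The promoters are written 5′ to 3′ in the direction of the gene, with the arm in capitals. Counted from the start site, the arm lies at -37 in Spag6, at 35 in Spag6l and at 9 in Tekt4.
Spag6, chr2:18698772-18699071, plus strand: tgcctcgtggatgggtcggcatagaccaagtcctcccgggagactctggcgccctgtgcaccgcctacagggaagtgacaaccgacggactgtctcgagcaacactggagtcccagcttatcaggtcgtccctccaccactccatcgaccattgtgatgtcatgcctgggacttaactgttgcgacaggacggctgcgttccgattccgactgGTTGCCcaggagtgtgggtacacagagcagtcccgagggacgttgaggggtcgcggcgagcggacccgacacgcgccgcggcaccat
Spag6l, chr16:16829314-16829613, minus strand: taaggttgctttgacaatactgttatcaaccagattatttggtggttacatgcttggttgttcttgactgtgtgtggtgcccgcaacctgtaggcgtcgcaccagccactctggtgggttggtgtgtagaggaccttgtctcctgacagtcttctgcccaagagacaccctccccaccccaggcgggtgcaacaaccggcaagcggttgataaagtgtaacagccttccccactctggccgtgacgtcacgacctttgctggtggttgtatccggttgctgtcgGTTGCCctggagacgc
Tekt4, chr17:25471340-25471639, plus strand: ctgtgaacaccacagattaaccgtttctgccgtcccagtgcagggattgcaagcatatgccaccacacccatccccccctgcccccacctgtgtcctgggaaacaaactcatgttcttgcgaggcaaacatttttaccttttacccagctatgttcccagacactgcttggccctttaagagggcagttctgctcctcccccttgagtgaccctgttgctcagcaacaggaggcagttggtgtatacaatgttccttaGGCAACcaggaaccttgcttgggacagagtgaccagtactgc
A match says only that these letters are present, and no binding was measured.

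In testis the highest control levels among the members were those of Odf1 and Akap4, parts particular to the sperm tail, followed by the spoke gene Rsph1. Odf1, an outer dense fibre protein, had 3018, 2614 and 3019.8 TPM in stress testis, against 2660.0, 2990.1 and 3103 TPM in control testis. TPM is a transcript level scaled by gene length and library total, so these levels can be compared between genes. Akap4, the main fibrous sheath protein, had 1830.3, 1351 and 2271 TPM in stress testis, against 2557, 2155 and 2189.6 TPM in control testis. Akap3, its partner in the sheath, averaged 947 ± 116 TPM in stress testis and 988 ± 3.91 TPM in control testis (SD, n = 3 each). Odf2, which also sits at centrosomes of other cells, averaged 1106 ± 151 TPM in stress testis and 1232 ± 149.9 TPM in control testis. The 4 pore-forming CatSper subunits were lower than these, from 122.5 ± 6.602 TPM for Catsper3 to 202 ± 34.0 TPM for Catsper1 in stress testis, and from 130.02 ± 4.37 TPM to 254 ± 40.9 TPM for the same genes in control testis.

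Among the shared parts of the axoneme, the radial spoke gene Rsph1 stood highest in testis, at 1861 ± 161 TPM in stress testis and 1885 ± 149 TPM in control testis. Cfap206, a protein of the radial spoke region, led the Cfap family with 741 ± 131 TPM in stress testis and 930.2 ± 83.2 TPM in control testis. Of the tektins, filament proteins inside the doublet microtubules, Tekt1 and Tekt4 were highest, with 619 ± 64.6 and 588 ± 68.3 TPM in control testis. Drc1, which anchors the nexin-dynein complex, averaged 126 ± 16.4 TPM in stress testis and 146 ± 6.495 TPM in control testis. Dnali1, a light intermediate chain of the inner arms, averaged 233 ± 24.0 TPM in stress testis and 248.8 ± 15.0 TPM in control testis, and Dnaic1, an outer arm intermediate chain, 104 ± 13.2 and 121 ± 10.7 TPM in the same groups. The dynein heavy chains, the motors themselves, covered a wide range. Dnah8, an outer arm chain used in sperm, averaged 159 ± 29.1 TPM in stress testis and 187 ± 22.8 TPM in control testis. Dnah5, Dnah9 and Dnah11, the outer arm chains of epithelial cilia, averaged 1.33 ± 0.315, 1.49 ± 0.312 and 0.384 ± 0.0368 TPM in control testis.

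In brain 65 of the 84 members averaged under 5 TPM in control and 15 averaged above 10 TPM. Cfap36 had 96.8, 104.5 and 107 TPM in stress brain, against 97.6, 100.1 and 98.3 TPM in control brain. Cfap20, which lies in the wall of microtubules, averaged 79.6 ± 5.51 TPM in stress brain and 81.1 ± 3.75 TPM in control brain. The dynein light chains Dnal1 and Dnal4 averaged 73.1 ± 11.5 and 74.1 ± 8.55 TPM in stress brain, and 68.5 ± 6.40 and 68.3 ± 0.724 TPM in control brain. Tekt5 averaged 19.8 ± 3.99 TPM in stress brain and 13.4 ± 5.35 TPM in control brain, the most of any tektin there, and Drc1 22.7 ± 5.10 and 21.2 ± 2.86 TPM in the same groups. Catsper2 had the most of the CatSper genes, with 3.76 ± 0.636 TPM in stress brain and 3.88 ± 0.461 TPM in control brain, and Dnah1, an inner arm chain, led the heavy chains with 3.42 ± 0.651 and 3.46 ± 0.548 TPM. In liver, which has no motile cilia on its main cell type, 12 members averaged more than 1 TPM in control, led by Cfap20 with 32.3 ± 3.93 TPM and Cfap298, a dynein arm assembly factor, with 27.9 ± 1.17 TPM. In all 6 liver libraries 18 members were listed at 0, Akap4, Catsper1, Tekt3, Spag16 and Spag6l among them.

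**Figure D1:**
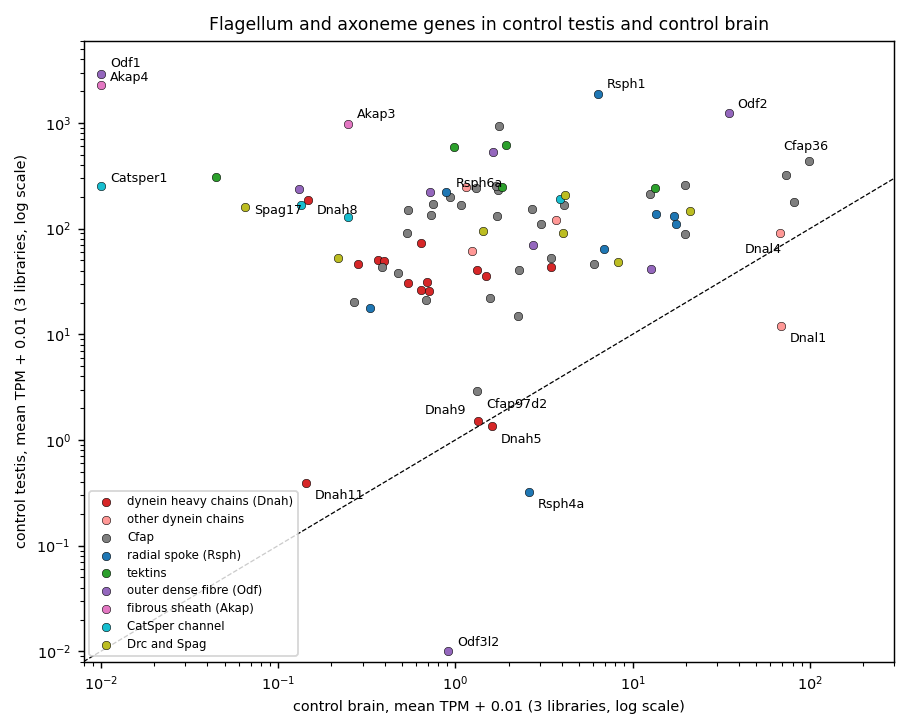
Each point is 1 of the 84 flagellum and axoneme genes, with its mean deposited TPM plus 0.01 over 3 control testis libraries (vertical) and over 3 control brain libraries (horizontal), both on log scales, coloured by family; the dashed line marks equal levels. Odf1, Akap4 and Catsper1 lie at the left edge because they were at 0 in control brain, and Dnal1, Rsph4a, Dnah5 and Odf3l2 lie below the line.

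Tissue levels were compared between testis and brain within each treatment, with edgeR's quasi-likelihood test and Benjamini-Hochberg adjustment over all genes tested. Between control testis and control brain, 80 of 83 members tested were higher and 2 lower in testis. Such differences were the rule for these tissues: 88.1% of all 21087 genes tested were called, 47% higher and 41.2% lower. A member that passed the count filter through testis alone had to differ, so the counts carry no weight beyond the values. Odf1, Akap4 and Catsper1 had no count in any control brain library. Set against a floor of 3 counts over the 3 libraries, which covers counting error only, Akap4 was at least 93700-fold, Odf1 at least 43500-fold and Catsper1 at least 7030-fold higher in control testis. Tekt3 had 2 counts over the 3 control brain libraries and 309 ± 27.0 TPM in control testis. Spag17, a central pair protein, had 162 ± 6.84 TPM in control testis and 0.0550 ± 0.0390 TPM in control brain, a log2 difference of 12.21 ± 0.23 (SE; edgeR adjusted p = 4.71e-10).

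Rsph6a and Rsph4a took opposite sides between the tissues. They encode alternative radial spoke head proteins, of sperm tails and of epithelial cilia. Rsph6a had 211, 226 and 228 TPM in control testis and 1.32, 0.629 and 0.691 TPM in control brain (log2 difference 8.68 ± 0.21, edgeR adjusted p = 1.21e-09). Rsph4a had 0.242, 0.295 and 0.399 TPM in control testis and 2.0, 3.55 and 2.21 TPM in control brain (-2.33 ± 0.35, edgeR adjusted p = 0.000183). The groups did not overlap in either gene, and the order of the tissues was opposite. In stress testis against stress brain, where 85.3% of 21051 genes were called, the log2 differences were 9.39 ± 0.17 for Rsph6a and -3.00 ± 0.42 for Rsph4a (edgeR adjusted p = 6.48e-09 and 0.000178).

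Among the outer arm heavy chains, none was called lower in control testis than in control brain. Dnah8 had a log2 difference of 11.11 ± 0.27 and Dnah17, the other sperm chain, 7.56 ± 0.17 between control testis and control brain (edgeR adjusted p = 1.37e-09 and 8.22e-10). Dnah11 averaged 0.384 ± 0.0368 TPM in control testis and 0.133 ± 0.0974 TPM in control brain (2.21 ± 0.54, edgeR adjusted p = 0.00383). Dnah9 had 1.47, 1.19 and 1.81 TPM in control testis and 1.03, 1.99 and 1.01 TPM in control brain, and these values overlapped. On counts its difference of 0.86 ± 0.28 passed (edgeR adjusted p = 0.0171), but it missed the threshold on the TPM scale and without control brain replicate 1, control testis replicate 1 or control testis replicate 3. Dnah5 had 1.42, 0.983 and 1.59 TPM in control testis and 1.73, 2.12 and 0.929 TPM in control brain; its difference of 0.46 ± 0.30 did not pass (edgeR adjusted p = 0.172) and was negative on the TPM scale. In the stressed animals Dnah5 had 0.579, 0.549 and 0.824 TPM in testis and 1.95, 2.65 and 1.72 TPM in brain, and was called lower in testis (-0.90 ± 0.23, edgeR adjusted p = 0.00574). TMM scaling centred all genes 0.20 above 0 on the log2 scale and log2(TPM + 1) centred them 0.39 below it, and the sign of the Dnah5 difference in control animals was opposite on these scales. The called split of all genes was 9905 higher and 8679 lower on counts, and 8214 higher and 10754 lower on log2(TPM + 1).

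Dnal1, a light chain of the outer arm, was the other member called lower in testis in both treatments. It had 11.2, 12.1 and 12.9 TPM in control testis and 64.8, 75.8 and 64.7 TPM in control brain (-1.79 ± 0.09, edgeR adjusted p = 9.45e-08), and the difference in the stressed animals was -1.99 ± 0.14 (edgeR adjusted p = 2.26e-06). An exon of Pnma1 overlaps Dnal1 by 384 bases on the opposite strand in GENCODE M21. Whether the authors counted by strand is not known here, so some Dnal1 counts may belong to Pnma1. Dnal4, another dynein light chain, averaged 91.6 ± 0.881 TPM in control testis and 68.3 ± 0.724 TPM in control brain (1.13 ± 0.07, edgeR adjusted p = 4.81e-07). Cfap97d2 was next in order, with 2.88 ± 1.06 TPM in control testis and 1.32 ± 0.682 TPM in control brain (1.83 ± 0.48, edgeR adjusted p = 0.00545). Odf3l2 did not reach the expression filter of this comparison, with no count in control testis and 34 counts over the 3 control brain libraries, at least 9.76-fold more in brain. Under stress, 79 of 83 members tested were higher in testis and 3 were lower, Rsph4a, Dnal1 and Dnah5, against 46% and 39.3% of all genes.

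**Figure D2:**
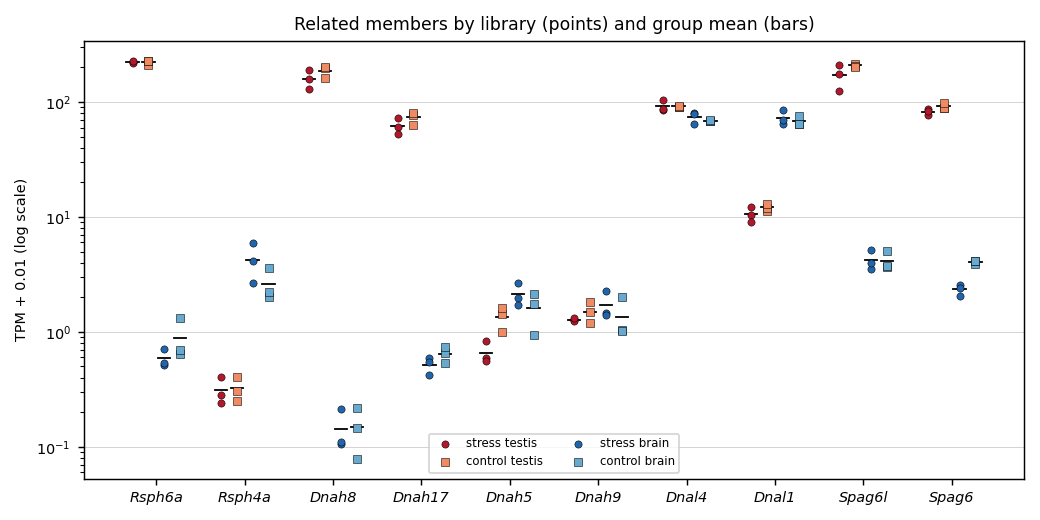
Deposited TPM plus 0.01 (log scale) of 10 related members in the single libraries of stress testis, control testis, stress brain and control brain (points) with group means (bars, n = 3). Rsph6a, Dnah8 and Dnah17 are high in testis, Rsph4a and Dnal1 are higher in brain, and Dnah5 and Dnah9 lie between 0.549 and 2.65 TPM in every library.

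The comparison of stress testis with control testis asked whether stress was accompanied by a difference in the sperm tail genes. No member passed: 0 of 83 tested were called by edgeR at an adjusted p under 0.05, while 4 of all 19915 genes were (0.0201%). DESeq2 called 1 member, Dnah5, and 61 of all genes (0.306%), and limma on log2(TPM + 1) called 0 members. At an unadjusted p under 0.05, 16 members were lower and 2 higher in stress testis, against 5.3% lower and 6.43% higher of all genes. The 2 groups did not overlap in 21 members with stress lower and in 4 with stress higher, against 10.7% and 10.3% of all genes. Log2 fold changes were below 0 in 59 members, against 47.9% of all genes, with a median of -0.11 for the members and 0.01 for all genes. In whole testis, fewer cells of a type and less RNA per cell cannot be told apart.

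The values below 0 went with gene length. Length here is the one the authors used for FPKM, recovered from their counts and FPKM. Of the 28 members of 5000 bases or more, 28 had a log2 fold change below 0, with a median of -0.30, against 63.1% of all genes of that length and a median of -0.08. Of the 33 members of at least 2000 but under 5000 bases, 26 were below 0 (median -0.12; all genes 46.3%, 0.02). Of the 22 members under 2000 bases, 5 were below 0 (median 0.05; all genes 37.8%, 0.09). Across the 83 members Spearman's rank correlation between fold change and length was -0.706, and across all genes it was -0.211. These points share libraries, and the values of all genes tested also tended to fall with length.

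When each library's trend over gene length was removed, an alternative chosen after seeing the data, 20 of the 28 long members were below 0 with a median of -0.18, against 50.2% of all genes of that length. Of all 83 members 63 were then below 0 with a median of -0.10, against 49.8% of all genes; 15 of the 22 short members were among them, against 5 before. Stress testis replicate 2 stood lowest. The long members' median difference from the control mean, on the log2 scale, was -0.18, -0.52 and -0.12 in stress testis replicates 1, 2 and 3, and between -0.05 and 0.08 in the control testis libraries. Without stress testis replicate 2, 27 of the 28 long members were below 0 with a median of -0.17, and the median of all members was -0.06.

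**Figure D3:**
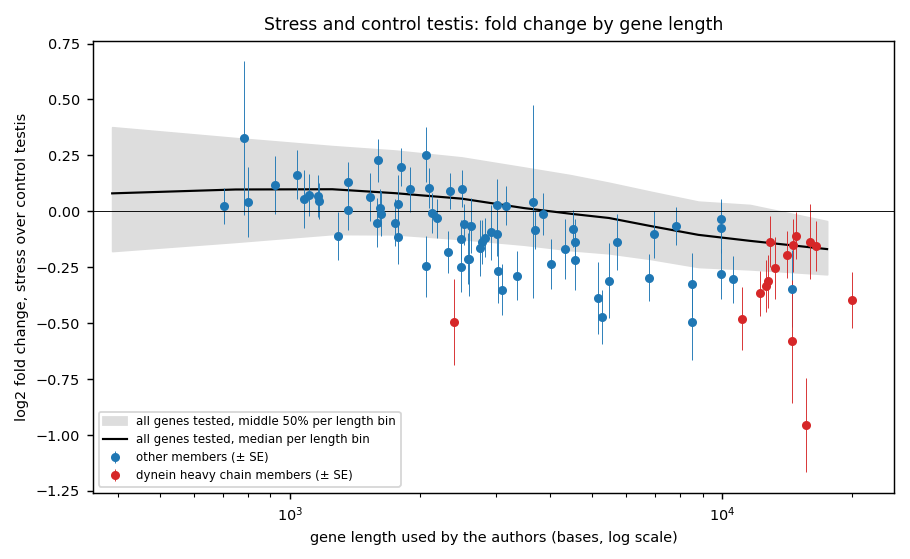
Log2 fold change of stress testis over control testis (edgeR, n = 3 each, bars are SE) against gene length in bases (log scale) for the 83 members tested, with dynein heavy chains in red and other members in blue; the line and band give the median and the middle 50% of all genes in bins of length. The members slope down from about 0 at 2000 bases to a median of -0.30 at 5000 bases or more, below the line of all genes, with Dnah5 lowest at -0.96.

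The 15 dynein heavy chains all had fold changes below 0 in testis, with a median of -0.31, and 8 of them did not overlap between groups, against 10.7% of all genes and 20.2% of all genes of 5000 bases or more. Dnah14, among these 8, has a length of 2393 bases and lies outside that length class. The 14 other members of 5000 bases or more had a median of -0.30, and of all genes of 10000 bases or more 74.0% were below 0 with a median of -0.15. With the length trend removed, 10 of the 15 chains were below 0 (median -0.18), and without stress testis replicate 2 all 15 were (median -0.20). Dnah5 had 0.579, 0.549 and 0.824 TPM in stress testis, against 1.42, 0.983 and 1.59 TPM in control testis. All 3 stress values lay under all 3 control values, and the mean was 4.31 CPM in stress testis and 8.36 CPM in control testis (CPM, counts scaled by library size). As log2 of stress over control this was -0.96 ± 0.21 (edgeR adjusted p = 0.422), and DESeq2 called it (-0.97, adjusted p = 0.0153).

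Among the inner arm chains, which shape the bend of the beat, Dnah3 had 38.1, 30.6 and 40.2 TPM in stress testis, against 45.7, 49.7 and 53.8 TPM in control testis (-0.37 ± 0.10, edgeR adjusted p = 0.422). Dnah12 had 33.2, 23.7 and 37.1 TPM in stress testis, against 39.4, 47.5 and 52.0 TPM in control testis (-0.48 ± 0.14, edgeR adjusted p = 0.422). In both genes the groups did not overlap. An exon of Lyrm1 overlaps Dnah3 by 1190 bases on the opposite strand in GENCODE M21, and whether the authors counted by strand is not known here. Dnah7a, Dnah7b and Dnah7c, with fold changes of -0.31, -0.40 and -0.33, share between 7.48% and 16.54% of their 100-base windows, so their counts may be split and their values are uncertain. Dnah8 and Dnah17, the sperm outer arm chains, had fold changes of -0.15 ± 0.12 and -0.16 ± 0.11 with overlapping groups.

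Cfap46, a protein of the central apparatus, had 15.7, 12.2 and 17.2 TPM in stress testis, against 19.8, 23.8 and 22.7 TPM in control testis (-0.47 ± 0.12, edgeR adjusted p = 0.422). Spag17 had 115, 71.7 and 142 TPM in stress testis, against 169, 155 and 161 TPM in control testis (-0.49 ± 0.17, edgeR adjusted p = 0.422). Stress and control values did not overlap in either gene, and stress testis replicate 2 was lowest in both. Spag16 averaged 40.7 ± 8.04 TPM in stress testis and 52.8 ± 1.78 TPM in control testis (-0.30 ± 0.11). Spag6l and Spag6, armadillo proteins of the central pair, had fold changes of -0.22 ± 0.13 and -0.06 ± 0.09 with overlapping groups, and Cfap74 and Cfap221 had -0.03 ± 0.09 and -0.09 ± 0.12, also with overlap. Spag17 overlaps exons of Wdr3 and Spag17os on the opposite strand.

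**Figure D4:**
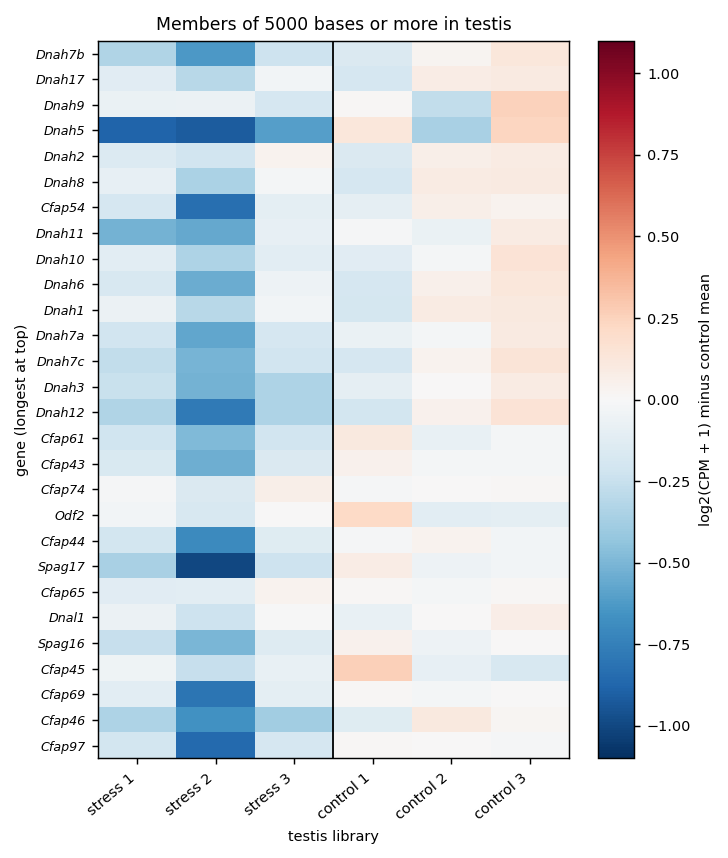
Difference of log2(CPM + 1) from the mean of the 3 control testis libraries for the 28 members of 5000 bases or more (rows, longest at top) in each testis library (columns, stress at left); blue is below and red above the control mean. The stress columns are mostly blue and the column of stress replicate 2 is darkest, with a median of -0.52, while the control columns stay between -0.05 and 0.08 in the median.

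Of the radial spoke genes, Rsph10b had 45.1, 39.0 and 57.5 TPM in stress testis, against 68.9, 62.0 and 59.7 TPM in control testis, without overlap (-0.35 ± 0.11, edgeR adjusted p = 0.422). The fold change of Akap4 was -0.26 ± 0.14 (edgeR adjusted p = 0.467), and its highest stress value of 2271 TPM exceeded 2 of the 3 control values. Akap3 had 0.03 ± 0.09 and Odf1 0.07 ± 0.09. The largest values above 0 by p were small. Rsph9, a spoke head protein, had 119, 128 and 121 TPM in stress testis, against 111, 110.0 and 113 TPM in control testis (0.23 ± 0.10, edgeR adjusted p = 0.422). Tekt5 had 256, 259.6 and 272 TPM in stress testis, against 245, 251 and 235 TPM in control testis (0.20 ± 0.09, edgeR adjusted p = 0.422). The groups did not overlap in these 2 genes, and they did in Odf3 (0.25 ± 0.12) and Odf3b (0.16 ± 0.11). By family, 5 of 7 Odf, 6 of 8 Rsph and 3 of 5 tektin genes were above 0, and 24 of 30 Cfap genes, all 3 Drc genes and all 4 Spag genes were below 0. On log2(TPM + 1) the counts above 0 were 2 of 7 Odf, 2 of 8 Rsph and 2 of 5 tektin genes, and with the length trend removed 3, 3 and 2, so these families have no direction that holds across scalings. The median of all genes was itself -0.06 on log2(TPM + 1), against 0.01 on counts. Catsper1 averaged 202 ± 34.0 TPM in stress testis and 254 ± 40.9 TPM in control testis (-0.25 ± 0.14, edgeR adjusted p = 0.474).

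Markers of testis cell types also varied between libraries. Leydig cell markers, 6 genes, summed to 582, 1142 and 619 TPM in stress testis, against 628, 594 and 565 TPM in control testis, with 2 of 6 above 0 (median -0.23). Insl3, a Leydig cell hormone, made up 963 TPM of the sum in stress testis replicate 2, the library with the lowest long members. Markers of elongating spermatids, also 6 genes, summed to between 46510 and 50656 TPM in stress testis and between 42651 and 46451 TPM in control testis, with 6 of 6 above 0 (median 0.20). Sertoli cell markers were above 0 in 6 of 6 (median 0.17), spermatocyte markers in 1 of 7 (median -0.10), round spermatid markers in 2 of 5 (median -0.03) and spermatogonia markers in 3 of 6 (median 0.05). None of these lists had a gene called by edgeR, and DESeq2 called Uchl1 of the spermatogonia list and Star of the Leydig list. No marker of these lists was at 0 in all libraries of a testis group. Hepatocyte markers summed to at most 2.22 TPM in stress testis and 2.41 TPM in control testis. The part of cell composition or of stress testis replicate 2's marker levels in the members' values was not tested.

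In brain, stress was compared with control for the members tested there. Not all are particular to cells with motile cilia, as Cfap20 and Cfap298 averaged 32.3 and 27.9 TPM in control liver. No member passed: 0 of 72 tested were called by edgeR, while 1 of all 17668 genes was (0.00566%). DESeq2 called 1 member, Rsph10b, with no adjusted p for 15 members, and 137 of all genes (0.775%), and limma on log2(TPM + 1) called 0 members. At an unadjusted p under 0.05, 2 members were higher and 2 lower in stress brain, against 4.16% and 3.38% of all genes. The groups did not overlap in 3 members with stress higher and 5 with stress lower, against 7.21% and 6.64% of all genes. Fold changes were below 0 in 30 of 72 members, against 50.9% of all genes, and the median was 0.06. The members' median difference from the control mean was -0.18, 0.17 and 0.05 in stress brain replicates 1, 2 and 3, and the median fold change was 0.16 without stress replicate 1, -0.06 without replicate 2 and 0.04 without replicate 3. With the replicate number as a block (same-numbered brain libraries deviated together), 22 of all genes (0.125%) and 0 members were called. This block joins stress and control animals that the sample codes do not link.

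Rsph10b, a radial spoke protein, had the smallest p in brain. It had 3.03, 4.26 and 3.30 TPM in stress brain, against 7.16, 6.95 and 6.44 TPM in control brain. The groups lay well apart, with the highest stress value under the lowest control value. As log2 of stress over control this was -0.97 ± 0.18 (edgeR adjusted p = 0.387), and DESeq2 called it (-0.98, adjusted p = 0.00167). The block gave an edgeR adjusted p of 0.103, and without stress brain replicate 3 the fold change was -0.94. Exons of Gm42421 and Pms2 overlap it by 325 and 85 bases on the same strand in GENCODE M21, so some of its counts may belong to them.

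Spag6 and Spag6l, whose promoters are shown above and whose GENCODE M21 transcripts shared no window of 100 bases, were set side by side in brain. Spag6 had 2.04, 2.57 and 2.41 TPM in stress brain, against 3.87, 4.13 and 4.13 TPM in control brain, without overlap (-0.81 ± 0.20, edgeR adjusted p = 0.458; -0.84 without stress brain replicate 3). Spag6l had 3.51, 5.14 and 3.99 TPM in stress brain, against 3.68, 5.00 and 3.70 TPM in control brain (0.01 ± 0.20). The values of Spag6l overlapped throughout. The difference between these 2 genes was not tested. An exon of Gm20539 overlaps Spag6 by 166 bases on the opposite strand in GENCODE M21, and the authors' strand setting is not known. Cfap74 and Drc3 were the other members with the smallest p below 0, at -0.31 ± 0.14 and -0.24 ± 0.12 (edgeR adjusted p = 0.679 and 0.69).

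Tekt4 had 1.31, 3.53 and 4.32 TPM in stress brain, against 0.653, 1.09 and 1.19 TPM in control brain. All stress values lay above all control values, and replicates 2 and 3 were far higher than replicate 1. As log2 of stress over control this was 1.62 ± 0.51 (edgeR adjusted p = 0.587), and 1.26 without stress brain replicate 3. All 4 tektins tested in brain were above 0, with a median of 0.66; Tekt1 had 0.975, 5.87 and 3.18 TPM in stress brain, against 1.85, 1.94 and 1.96 TPM in control brain, and overlapped. Cfap46 had 2.16, 1.99 and 2.51 TPM in stress brain, against 1.54, 1.79 and 1.38 TPM in control brain, without overlap (0.49 ± 0.20, edgeR adjusted p = 0.662; 0.38 without stress brain replicate 3). Cfap157, required for the sperm tail in mice, averaged 3.77 ± 0.709 TPM in stress brain and 2.70 ± 0.391 TPM in control brain (0.46 ± 0.25, edgeR adjusted p = 0.718). Rsph4a, the epithelial spoke head gene, averaged 4.25 ± 1.68 TPM in stress brain and 2.59 ± 0.843 TPM in control brain with overlap (0.70 ± 0.34, edgeR adjusted p = 0.697).

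Stress brain libraries 2 and 3 differed from the other brain libraries in choroid plexus markers. The 12 markers summed to 23.7, 1437 and 910 TPM in stress brain, against 10.5, 25.7 and 15.1 TPM in control brain, mostly from Ttr. Of 10 markers tested, 10 were above 0 (median 1.89) and 8 had an unadjusted p under 0.05; edgeR called 0, and DESeq2 called Kl, Prlr and Ttr. With the replicate block edgeR called Ttr. None was at 0 in all libraries of a group. The 12 ependyma markers summed to 69.5, 98.5 and 129 TPM in stress brain, against 61.2, 73.1 and 100.4 TPM in control brain, with Mia at 0 in all 3 control libraries. Of 11 ependyma markers tested, 10 were above 0 (median 0.32), and 0 were called by edgeR or DESeq2. This count depends on the scale: with the replicate block 3 of the 11 were below 0 (median 0.16), and on log2(TPM + 0.1) 6 were (median -0.0033). The ependyma markers also summed to between 757 and 899 TPM in control liver and between 1216 and 1268 TPM in control testis. The choroid plexus markers summed to between 8842 and 14013 TPM in control liver. Across tissues, neither sum is therefore particular to these brain cells. Hepatocyte markers summed to at most 1.26 TPM in stress brain and 1.41 TPM in control brain. Neuron markers summed to between 3827 and 3957 TPM in stress brain and between 3655 and 4330.1 TPM in control brain. Rsph10b and Spag6 were lowest in stress brain replicate 1, whose choroid sum lay within the control range. Tekt4 was lowest there among the stress libraries. Beyond these values, the part of choroid plexus or ependyma tissue in the members' differences was not tested.

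**Figure D5:**
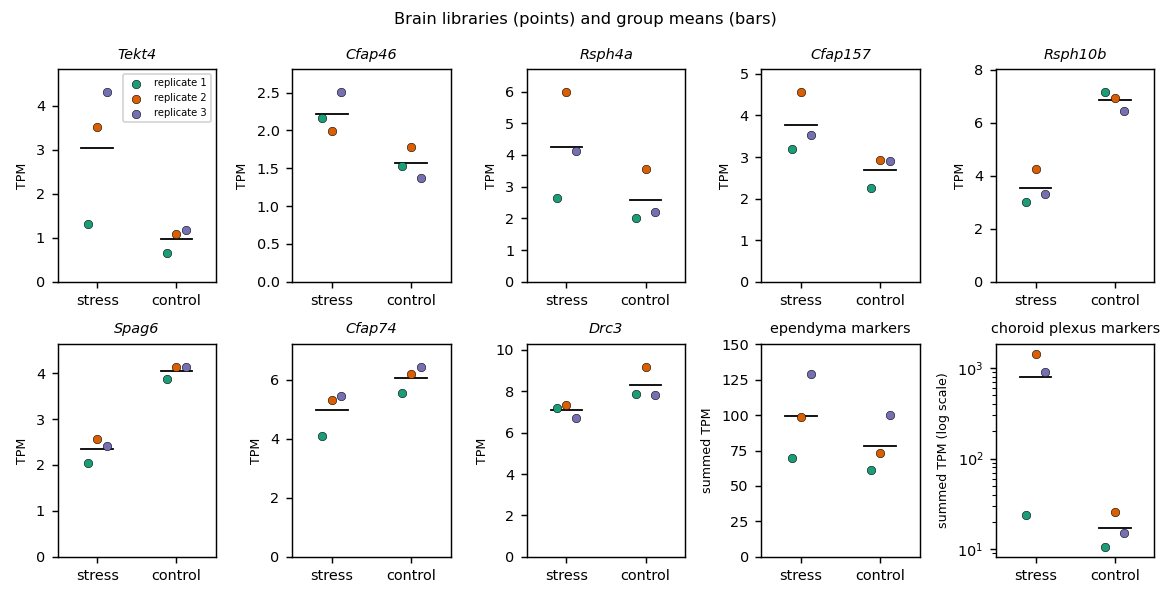
Deposited TPM of 8 members in the 3 stress brain and 3 control brain libraries (points, coloured by replicate number; bars are means), and the summed TPM of ependyma and choroid plexus markers, the last on a log scale. Rsph10b, Spag6, Cfap74 and Drc3 lie lower in all stress libraries, Tekt4, Cfap46 and Cfap157 lie higher, Rsph4a overlaps, and the choroid plexus sum is high in stress replicates 2 and 3.

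The stress effects in testis and in brain were compared directly as the tissue by stress interaction over 12 libraries. The fits took the 12 libraries as independent, although the sample codes pair testis and brain libraries of an animal. With the animal as block, the edgeR adjusted p was 0.82 for both Spag6 and Cfap46, and 0 members were called. DESeq2 and limma were not fitted with this block. Of 84 members tested 0 were called by edgeR, and 0 of all 22391 genes (0%). At an unadjusted p under 0.05, 4 members had a higher and 7 a lower effect in testis than in brain, against 5.38% and 4.05% of all genes. Spag6 had the smallest p, with a log2 effect in testis 0.75 ± 0.15 above that in brain (edgeR adjusted p = 0.33). Cfap46, with fold changes of opposite sign in the 2 tissues, had a testis minus brain difference of -0.96 ± 0.20 (edgeR adjusted p = 0.33). DESeq2 called 2 members, Cfap46 (-0.997, adjusted p = 0.018) and Tekt4 (-1.61, adjusted p = 0.0417), out of 85 of all genes (0.38%), and limma on log2(TPM + 1) called 0 members. The interaction of Rsph10b was 0.63 ± 0.19 and that of Dnah5 -1.34 ± 0.40 (edgeR adjusted p = 0.415 and 0.405). Without stress brain replicate 3 the values were 0.79 for Spag6 and -0.84 for Cfap46.

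Partner genes outside the set, taken from 6 lists, held no call by edgeR, DESeq2 or limma in either tissue. In testis, genes of intraflagellar transport, which carries axoneme parts to the tip, were below 0 in 22 of 27, with a median of -0.21, and 6 had an unadjusted p under 0.05, all lower, against 5.3% lower and 6.43% higher of all genes. Ttc21b had 39.9, 29.6 and 43.7 TPM in stress testis, against 49.9, 51.3 and 54.3 TPM in control testis (-0.38 ± 0.11, edgeR adjusted p = 0.422). With the length trend removed, 23 of the 27 were below 0 with a median of -0.16. The list of ruler and nexin-dynein partners, which space and link the doublets, was below 0 in 9 of 10 (median -0.19) with 2 lower at that p, and Ccdc39 stood at -0.36 ± 0.16. Auxiliary CatSper subunits were below 0 in 7 of 10 (median -0.08), with 1 lower at that p, and ciliogenesis regulators in 11 of 14 (median -0.07), with 0. Dynein arm assembly and docking factors were below 0 in 10 of 18 (median -0.04), with 3 lower and 1 higher. Genes of sperm tail metabolism and signalling were below 0 in 6 of 16 (median 0.04), with 3 lower and 1 higher, but in 11 of 16 with the length trend removed (median -0.02) and in 12 of 16 on log2(TPM + 1) (median -0.05). All genes had a median of -0.06 on log2(TPM + 1) in testis.

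In brain the same lists had medians on both sides of 0, and 4 of their 83 genes tested (4.82%) had an unadjusted p under 0.05 and were lower in stress brain, against 3.38% of all genes. Intraflagellar transport genes were below 0 in 13 of 27 (median 0.01), ruler and nexin-dynein partners in 4 of 10 (0.06), dynein arm assembly and docking factors in 8 of 16 (-0.0023), ciliogenesis regulators in 6 of 14 (0.03), sperm tail metabolism and signalling genes in 6 of 11 (-0.05) and auxiliary CatSper subunits in 3 of 5 (-0.10). Foxj1, the regulator of motile cilia, had 4.74, 8.75 and 10.6 TPM in stress brain, against 3.66, 5.62 and 7.65 TPM in control brain, and overlapped (0.48 ± 0.37, edgeR adjusted p = 0.796). Ccdc103, a dynein arm attachment factor, had 2.73, 4.13 and 3.77 TPM in stress brain, against 5.29, 6.70 and 4.76 TPM in control brain, without overlap (-0.67 ± 0.24, edgeR adjusted p = 0.62).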

How the data were processed

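Raw counts per gene, TPM and FPKM were used as deposited by the authors in 1 table of 34932 genes, counts without normalization. Per the submitters' processing notes the build was mm39; the aligner, the counting program, its strand setting and the annotation are not known from the sources used here. The FPKM values deposited by the authors follow from these counts with 1 length per gene, recovered here as whole bases (largest deviation 0.024). The TPM deposited by the authors served for levels and as a second scale. GENCODE M21 (GRCm38) named 34362 genes and left 570 without a symbol. Because its build differs, no gene positions are given, and promoters are RefSeq's on GRCm38.p6.

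Tests used edgeR 4.0.16 in R 4.3.3 (TMM, default low-count filter, quasi-likelihood test, Benjamini-Hochberg adjustment over all genes tested, threshold 0.05), checked on simulated data. Other fits were DESeq2 1.42.0, edgeR with size factors from DESeq2, limma 3.58.1 on log2(TPM + 1) and log2(TPM + 0.1), no filter, each library left out, a replicate block, and, added after seeing the data, removal of a length trend. Fold changes are on the log2 scale, stress minus control or testis minus brain. CPM are counts scaled by TMM library size. Interquartile bands and correlations over genes are descriptions.

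The members and all lists were chosen with earlier results of these data known. Named members are those with the 4 smallest p per direction in testis and in brain, the highest TPM per family in control testis and in control brain, the 6 largest and the 6 smallest tissue differences, the 2 smallest interaction p, and the Akap and Spag members; of the other lists, up to 3 genes with the smallest p. Other genes were chosen after their values were seen. Deviations from group means of libraries sharing a replicate number correlated at 0.305, 0.167 and 0.439 in brain, which reads the pairing from these same libraries, and at 0.077, 0.068 and -0.088 in testis, which gives none. Testis and brain libraries of an animal are paired by the sample codes. The main tissue and interaction fits did not use this pairing, and the replicate block did. Counting error alone underlies the floor of 3 counts.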

Additional observations from a re-analysis of the deposited data

Results flagged for a closer look

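Liver entered no comparison of the members. Cfap100, a protein of the axoneme, averaged 0.522 TPM in stress liver (0.424, 0.610 and 0.532 TPM), against 0.272 TPM in control liver (0.238, 0.368 and 0.210 TPM), so that all stress values lay above all control values in data outside the main measurement. Among all 14395 genes with 10 counts in 3 liver libraries, 11.8% had stress TPM above control TPM in this way. The level of Cfap100 is below 1 TPM, and the difference was not tested. The search took only stress above control, over the 24 members that met the same count limit. Among them Odf2l, Cfap53, Cfap54 and Cfap300 had all stress values below all control values. Their means were 4.92, 0.131, 0.0253 and 0.229 TPM in stress liver, against 6.05, 0.643, 0.0773 and 0.480 TPM in control liver. The share of all genes lying this way was not computed.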

How the results depend on the processing

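The count of members called in testis, in brain and in the interaction was 0 in edgeR with TMM or DESeq2 size factors, in limma on both TPM scales, without the low-count filter and without any 1 library (0 to 0), and in testis and brain also with the length trend removed. DESeq2 called 1 in testis, 1 in brain and 2 in the interaction, out of 61, 137 and 85 calls over all genes in the same fits. Between control testis and control brain the calls ran from 82 to 83 without any 1 library, and likewise between stress testis and stress brain. The tissue difference of Dnah5 turned to -0.13 on log2(TPM + 1) and -0.19 on log2(TPM + 0.1). Dnah9 lost its call on both TPM scales (0.11 and 0.19) and without control brain replicate 1, control testis replicate 1 or control testis replicate 3 (0.69 to 0.87). The median of the members in testis was -0.19 on both TPM scales, against -0.11 on counts. The median of all genes in testis was -0.06 on log2(TPM + 1), -0.08 on log2(TPM + 0.1) and 0.01 on counts. Without 1 library the members' median ran from -0.13 to -0.06 in testis and from -0.06 to 0.16 in brain. The cause of these shifts was not tested.

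With the replicate block the calls stayed at 0 in testis, brain and the interaction, at 82 of 83 members between control testis and control brain and at 82 between stress testis and stress brain, so the block changed no member's call. Over all genes the block raised the brain calls to 22, against 1 without it. With the animal as block the smallest adjusted p among the members in the interaction was 0.82.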
